A study of Homo sapiens with 20 samples.

Results

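The 47 genes described here make up the machinery of DNA replication and the switch from G1 to S phase. They were chosen by gene symbol through the array's annotation, with the probe set of highest mean over 20 arrays standing for each gene, out of 7695 genes tested. All 47 had a probe set and all 47 passed the filter on dim genes, and 30 of them had 1 probe set only. RNA came from 10 cell lines established from human T-cell acute lymphoblastic leukemia or lymphoma (T-ALL) that, by the series' own account, have NOTCH1-activating mutations. Each line had 1 array after 72 h in vehicle (DMSO) and 1 array after 72 h in 100 nM CompE, an inhibitor of gamma-secretase, the protease complex that releases the active part of NOTCH receptors. The lines ALL-SIL, CUTLL1, DND41, HPB-ALL and KOPTK1 are called sensitive below, since published work describes their growth as inhibited by such compounds, and CCRF-CEM, MOLT3, P12-ICHIKAWA, PF382 and RPMI8402 are the other lines. These classes are not in the sample labels. Nothing in the labels tells if DMSO and CompE arrays of a line were separate cultures, so the 10 lines are the replicates. In 3 of the other lines (CCRF-CEM, MOLT3, P12-ICHIKAWA) the growth medium written for the DMSO array differs from that of the CompE array. It is spelled as the cell line RPMI8402, possibly by mistake, and if the medium differed is unknown.

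A replication origin is prepared in G1 by the origin recognition complex (ORC), which with CDC6 and CDT1 loads the ring-shaped MCM2 to 7 helicase onto DNA. At the start of S phase, CDK2 with its cyclins and the CDC7 kinase turn the ring into an active helicase together with CDC45 and GINS. Primase, the polymerases, the sliding clamp PCNA, its RFC loader and the single-strand binding protein RPA then copy the DNA. Many of these genes are controlled by E2F transcription factors, and in T-ALL NOTCH1 is known to drive growth in part through MYC.

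The arrays held strong T-cell signal and differed in RNA quality. All 10 T-cell marker genes passed the filter, which acts on the mean over arrays. CD3D, a chain of the T-cell receptor complex, had the highest minimum of them and read at least 4461 on every array. CD2 and CD5 read 2.61 and 11.2 at their lowest, below the filter signal of 32.5. Of the other markers with a probe set, 0 of 5 myeloid, 0 of 2 erythroid, 2 of 4 B-cell, 2 of 4 fibroblast and 1 of 4 epithelial ones passed the filter. The summed B-cell signal ranged from 124 to 2576 in DMSO and from 93.3 to 1962 in CompE. CD79A read up to 2469, while MS4A1, CD79B and PAX5 reached 47.6, 164 and 64.7. The samples were cell lines, so these are signals of marker genes and do not show other cells. Their part in the results was not tested. An ACTB signal ratio between probe sets at the 3' and 5' ends of the transcript, a measure of RNA breakdown, ranged from 1.02 to 3.32 in DMSO and from 1.22 to 9.76 in CompE, and was higher in CompE in 9 of 10 lines (exact sign-flip permutation test, two-sided, p = 0.00586). KOPTK1 held the highest ratio in both conditions, 3.32 and 9.76.

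Over all 10 lines, 3 of the 47 genes fell under CompE and 0 rose. The background was 249 of 7695 genes lower, 3.24%, and 303 higher, 3.94% (limma, Benjamini-Hochberg adjusted p under 0.05). With each array centred on its median, 7 of the 47 fell, and the split over all genes turned to 289 lower and 200 higher. The 3 were MCM10, a factor needed to start the helicase, POLD2, a subunit of DNA polymerase delta, and RPA3, the smallest RPA subunit. All changes below are differences of log2(signal + 16), CompE minus DMSO. MCM10 fell by 0.58 ± 0.157 (SE, n = 10 pairs, limma adjusted p = 0.0365), POLD2 by 0.44 ± 0.126 (limma adjusted p = 0.0468) and RPA3 by 0.35 ± 0.0941 (limma adjusted p = 0.0346). PRIM1, the catalytic primase subunit, missed the threshold at -0.50 ± 0.147 (limma adjusted p = 0.0503). The estimates of 44 of the 47 lay below 0 with a median of -0.22, beside 3159 of 7695 genes and a median of 0.04 over all genes tested. These are bulk cultures, in which fewer cells in S phase and less RNA of these genes per cell cannot be told apart. Of the 47 genes, 0 were called without CUTLL1, without DND41, without HPB-ALL or without RPMI8402. The count was 9 without KOPTK1 and 5 without P12-ICHIKAWA. Among all genes tested, the 249 called lower became 153, 108, 85 and 86, and then 469 and 255, in the same order.

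In the 5 sensitive lines, 14 of the 47 genes fell and 0 rose, beside a background of 3.13% lower and 4.18% higher among the 7695 genes (241 and 322 genes). With median centring 18 of the 47 fell and 0 rose, and the split over all genes turned to 358 lower and 159 higher. The 14 were ORC1, CDC6 and MCM10 among the licensing and origin factors, MCM2, MCM3, MCM4 and MCM6 of the helicase ring, the GINS subunit GINS2, POLA1 and PRIM1 of the polymerase alpha-primase complex, the clamp loader subunits RFC3, RFC4 and RFC5, and RPA3. The median of the 47 was -0.38, against 0.06 over all genes tested. In the 5 other lines, 0 of the 47 and 0 of the 7695 genes passed (limma, 0% called), the median of the 47 was -0.07, and at an unadjusted p under 0.05 there were 0 of the 47 and 855 of all genes. The test of the difference between the classes called 0 of the 47 and 0 of the 7695 genes (0%), so the classes are not shown to differ for any single gene. At an unadjusted p under 0.05, 15 of the 47 and 660 of the 7695 genes differed between classes.

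**Figure D1:**
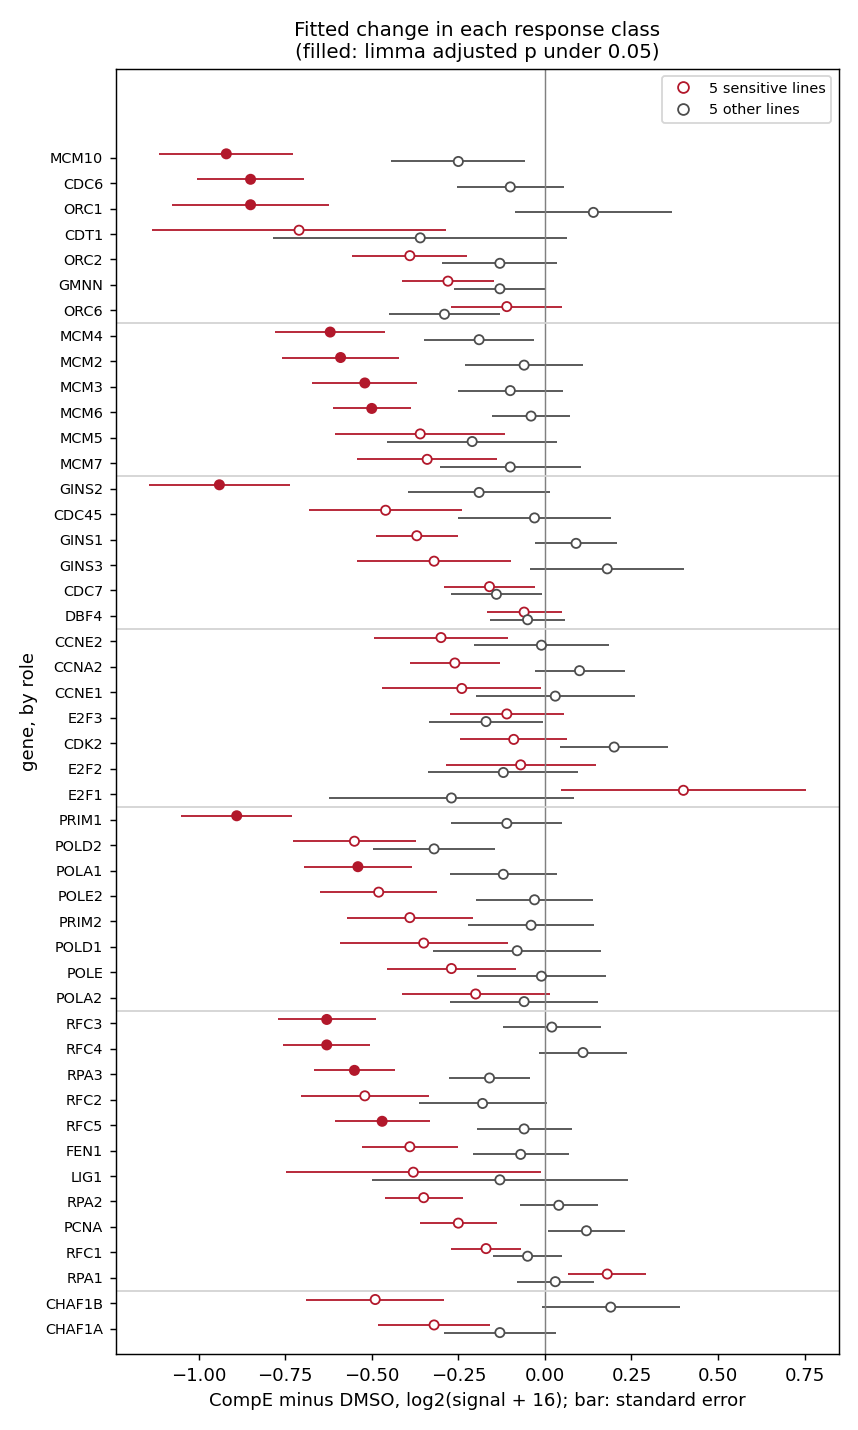
Fitted change of each of the 47 genes, CompE minus DMSO on the log2(signal + 16) scale (horizontal axis), by role (vertical axis), in the 5 sensitive lines (red) and the 5 other lines (grey). Bars are standard errors and filled points passed limma's adjusted threshold of 0.05; the 14 filled points are all in the sensitive lines and lie between -0.94 and -0.47.

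Among the 47 genes, most changes of -1 or below were in CUTLL1 and HPB-ALL. The median change of the 47 genes was -0.88 in CUTLL1 and -0.82 in HPB-ALL. It was -0.08 in ALL-SIL, -0.20 in DND41 and -0.11 in KOPTK1. In the other lines it was -0.21 in CCRF-CEM, -0.12 in P12-ICHIKAWA, -0.09 in RPMI8402, 0.01 in PF382 and 0.06 in MOLT3. Over all 7695 genes the medians of single lines stayed between -0.00 and 0.11, at 0.01 in CUTLL1 and 0.05 in HPB-ALL. All 47 genes were lower in CUTLL1 and 46 in HPB-ALL, where RPA1 was the exception at 0.60. Changes of -1 or below numbered 18 of the 47 in CUTLL1 and 20 in HPB-ALL, and 1 each in ALL-SIL, DND41, KOPTK1 and P12-ICHIKAWA. Among all 7695 genes they numbered 131 and 245, and 95, 217, 335 and 114, in the same order. For 31 of the 47 genes CUTLL1 and HPB-ALL were the 2 lowest lines, as they were for 293 of all genes tested, 3.81%. This count was made after the values were seen. All values by line are of the 1 probe set used per gene, and those of DND41 depended on this choice, as given further below.

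Without CUTLL1 and HPB-ALL, an alternative added after the data were seen, 0 of the 47 genes passed over the 8 remaining lines or in the 3 remaining sensitive lines. The medians were then -0.08 and -0.14, and 44 of all genes passed over the 8 lines and 10 in the 3 sensitive lines. Leaving out HPB-ALL alone left 2 of the 47 called in the sensitive lines, and leaving out CUTLL1 alone left 4. Leaving out KOPTK1 raised the count to 23. Among all genes tested, the number called lower moved as well, from 241 to 34, 144 and 373 in the same order. The count of the 47 was also 9 without CCRF-CEM and 9 without PF382, and 3 without all 3 lines of the other medium label. All genes called lower then numbered 165, 194 and 46. Those lines are not in the sensitive class and enter its test only through the shared estimate of the spread, and the median of -0.38 was the same without the 3. The changes of the 2 classes overlapped for all 47 genes, and 16 genes were lower in all 5 sensitive lines. Neither count was made over all genes tested, so neither can be set against a background.

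**Figure D2:**
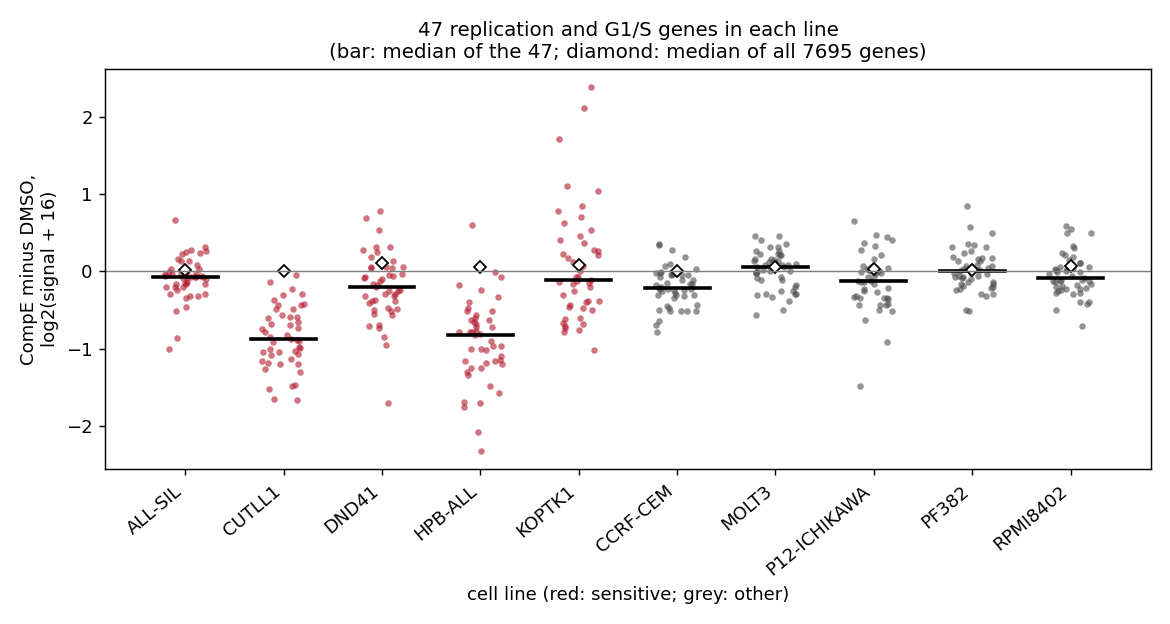
Change of the 47 genes in each line, CompE minus DMSO on the log2(signal + 16) scale (vertical axis), with 1 point per gene, a bar at their median and a diamond at the median of all 7695 genes. The bars of CUTLL1 (-0.88) and HPB-ALL (-0.82) lie far below those of the remaining 8 lines, which lie between -0.21 and 0.06, and KOPTK1 has the widest spread, from -1.02 for MCM10 to 2.11 for CDT1 without its top point, E2F1, whose DMSO signal was below the filter signal.

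**Figure D3:**
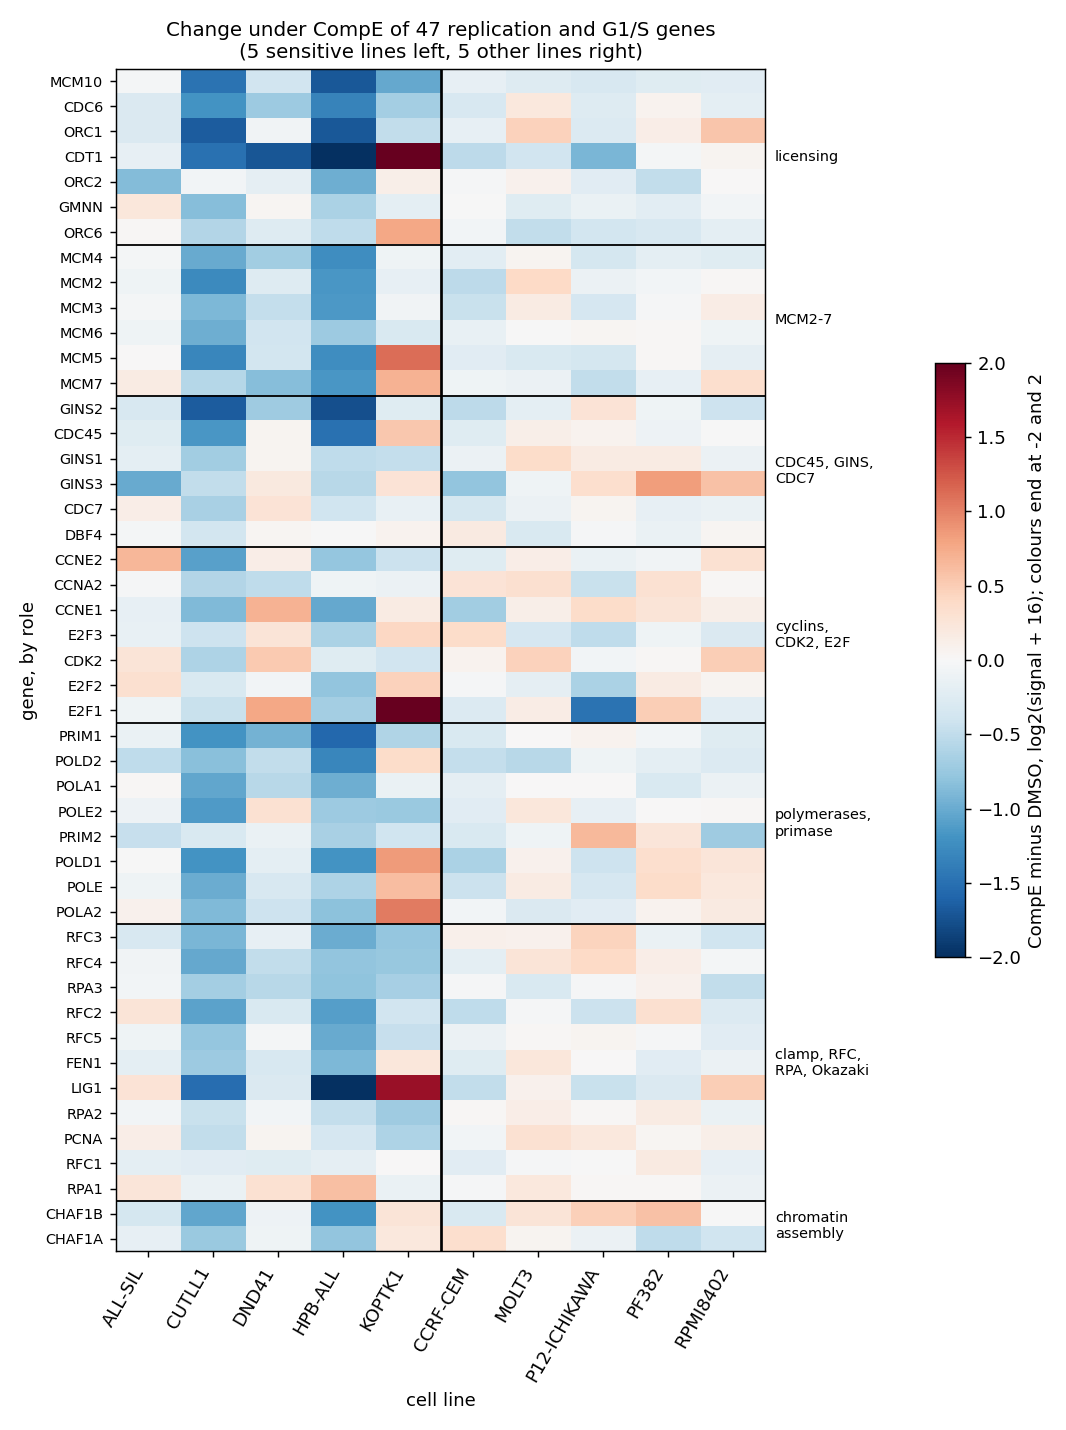
Change of each of the 47 genes (rows, by role) in each line (columns, 5 sensitive lines left of the rule), CompE minus DMSO on the log2(signal + 16) scale, blue for lower and red for higher in CompE. The blue columns are CUTLL1 and HPB-ALL; CDT1 (2.11) and LIG1 (1.72) are strong red cells in KOPTK1, as is E2F1, whose DMSO signal there was below the filter signal.

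Promoter sequences were set beside these results because many replication genes are known E2F targets. RefSeq promoter windows (GRCh38.p14, 250 bases before to 50 after an annotated start) were found for 41 of the 47 genes. E2F-type sites were searched as the 8-letter words TTTCCCGC, TTTCGCGC, TTTGCCGC and TTTGGCGC on both strands, overlaps allowed. Of the 41 genes, 21 held at least 1 such word (51.2%), beside 1090 of 27305 genes in the table (3.99%). Among the 12 genes with a window that fell in the sensitive lines, 7 held it (58.3%), and among the 29 that did not pass, 14 held it (48.3%). The CCAAT word was in 24 of the 41 (58.5%) and in 39.7% of all genes. A match describes the letters only. The 120-base stretches below come from the 5 genes that fell in the sensitive lines and had a match lying wholly before the start, and from E2F1, which did not pass in any comparison. Letters run 5' to 3' on the gene's strand, capitals mark the E2F-type words, and positions count from the annotated start with bases before it negative.
MCM6 (minus strand, chr2:135876476-135876595): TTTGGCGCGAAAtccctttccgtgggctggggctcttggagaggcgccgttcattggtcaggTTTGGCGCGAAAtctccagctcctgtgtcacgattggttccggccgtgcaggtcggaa
MCM3 (minus strand, chr6:52284857-52284976): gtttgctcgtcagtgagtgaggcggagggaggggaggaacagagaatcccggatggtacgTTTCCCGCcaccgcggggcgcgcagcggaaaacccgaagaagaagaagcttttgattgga
GINS2 (minus strand, chr16:85688955-85689074): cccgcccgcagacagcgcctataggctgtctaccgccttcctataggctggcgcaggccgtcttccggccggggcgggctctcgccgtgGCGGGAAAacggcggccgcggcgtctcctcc
RFC3 (plus strand, chr13:33818029-33818148): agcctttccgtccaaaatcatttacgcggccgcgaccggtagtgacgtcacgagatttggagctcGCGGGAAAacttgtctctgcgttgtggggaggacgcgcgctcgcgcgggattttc
POLA1 (plus strand, chrX:24693721-24693840): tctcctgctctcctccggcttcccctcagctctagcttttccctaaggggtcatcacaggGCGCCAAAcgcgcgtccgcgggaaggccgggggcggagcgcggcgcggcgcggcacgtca
E2F1 (minus strand, chr20:33686386-33686505): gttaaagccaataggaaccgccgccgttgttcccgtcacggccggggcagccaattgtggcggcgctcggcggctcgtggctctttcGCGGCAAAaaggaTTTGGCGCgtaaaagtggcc
The MCM6 stretch holds 4 matches, at positions -152, -148, -90 and -86, in 2 overlapping pairs. MCM3 has its match at -174 and a further one at -4 outside the stretch shown, GINS2 at -31, RFC3 at -55, POLA1 at -137 and E2F1 at -33 and -20. The values of these genes follow by role.

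Among the 7 licensing and origin factors, MCM10, CDC6 and ORC1 fell in the sensitive lines, and the median of the group there was -0.71. MCM10 read 390.4 in ALL-SIL, 385 in CUTLL1, 399.8 in DND41, 634 in HPB-ALL and 312 in KOPTK1 after DMSO. After CompE it read 379, 129, 303, 185 and 146 in the same order. Every sensitive line was lower after CompE, ALL-SIL hardly so, and its 379 lay inside the range of the DMSO arrays. MCM10 fell by 0.92 ± 0.193 in the sensitive lines (SE, n = 5 pairs, limma adjusted p = 0.0132), so it fell by 47.2% on this scale. In the other lines it read 279 in CCRF-CEM, 400.4 in MOLT3, 197 in P12-ICHIKAWA, 220.1 in PF382 and 397 in RPMI8402 after DMSO, and 246, 331, 154, 183 and 336 after CompE. It was the 1 gene of the 47 that was lower in all 10 lines, and the change in the other lines was -0.25 ± 0.193, which did not pass.

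CDC6, the ATPase that loads the MCM ring together with ORC, read 440.4, 236, 327, 385 and 253 after DMSO in ALL-SIL, CUTLL1, DND41, HPB-ALL and KOPTK1. After CompE it read 358, 94.2, 191, 142 and 153. All 5 were lower, and the ranges overlapped through ALL-SIL. CDC6 fell by 0.85 ± 0.155 (limma adjusted p = 0.00785), and it kept its call without any 1 of the 10 lines. CCRF-CEM, MOLT3, P12-ICHIKAWA, PF382 and RPMI8402 read 231, 275, 357, 425 and 267 after DMSO and 182, 321, 296, 449 and 233 after CompE, lower in 3 and higher in 2. ORC1, the ATPase subunit of the origin recognition complex, fell by 0.85 ± 0.226 in the sensitive lines (limma adjusted p = 0.0368), with -1.69 in HPB-ALL, -1.67 in CUTLL1 and at most 0.55, in RPMI8402. ORC2 and ORC6, 2 further subunits, had -0.39 and -0.11 in the sensitive lines and did not pass. CDT1, the loader that GMNN (geminin) inhibits, ranged from -2.33 in HPB-ALL to 2.11 in KOPTK1, so that its estimate of -0.71 had a standard error of 0.425. GMNN itself had -0.28 ± 0.133 in the sensitive lines and -0.13 ± 0.133 in the other lines.

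Of the 6 subunits of the MCM2 to 7 helicase, 4 fell in the sensitive lines and all 6 estimates were below 0 there, with a median of -0.51. MCM4 read 1139 in ALL-SIL, 639 in CUTLL1, 716 in DND41, 653 in HPB-ALL and 626 in KOPTK1 after DMSO. After CompE it read 1103, 309, 435, 266 and 593. CUTLL1 and HPB-ALL were much lower after CompE, while ALL-SIL and KOPTK1 differed little. MCM4 fell by 0.62 ± 0.159 (SE, n = 5 pairs, limma adjusted p = 0.033). In CCRF-CEM, MOLT3, P12-ICHIKAWA, PF382 and RPMI8402 it read 587, 687, 642, 692 and 526 after DMSO and 506, 717, 499, 601 and 443 after CompE, lower in 4. Its 3 further probe sets had larger estimates in the sensitive lines, -0.96, -0.99 and -1.02.

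MCM6 read 2888, 2420.4, 2586, 2624 and 3613 after DMSO in ALL-SIL, CUTLL1, DND41, HPB-ALL and KOPTK1, and 2735, 1219, 1971, 1584 and 2914 after CompE. All 5 were lower, and CompE arrays of ALL-SIL and KOPTK1 lay inside the range of the DMSO arrays. MCM6 fell by 0.50 ± 0.113 (limma adjusted p = 0.019). The values in CCRF-CEM, MOLT3, P12-ICHIKAWA, PF382 and RPMI8402 were 1961, 3104, 2104, 2443 and 1759 after DMSO and 1769, 3092, 2157, 2491 and 1653 after CompE, a change of -0.04 ± 0.113. MCM2 fell by 0.59 ± 0.17 and MCM3 by 0.52 ± 0.152 in the sensitive lines (limma adjusted p = 0.0476 and 0.0487). MCM5 had -0.36 ± 0.245 and MCM7 -0.34 ± 0.203 and did not pass. Both were lower in CUTLL1, DND41 and HPB-ALL and higher in KOPTK1, by 1.11 and 0.70. A second MCM7 probe set gave 0.04 in DND41 where the first gave -0.85, so the direction of MCM7 in that line depends on the probe set.

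CDC45 and the GINS complex join the MCM ring to form the active helicase, and CDC7 with its activator DBF4 is the kinase that promotes this step. Only GINS2 of these 6 genes fell in the sensitive lines. GINS2 read 1054 in ALL-SIL, 604 in CUTLL1, 528 in DND41, 700.2 in HPB-ALL and 619 in KOPTK1 after DMSO, and 844, 179.9, 316, 196 and 518 after CompE. All 5 were lower, with changes of -1.66 in CUTLL1 and -1.76 in HPB-ALL. GINS2 fell by 0.94 ± 0.204 (SE, n = 5 pairs, limma adjusted p = 0.0162); as a percentage it fell by 47.8%. Outside this class, CCRF-CEM, MOLT3, P12-ICHIKAWA, PF382 and RPMI8402 read 626, 665, 478, 675 and 349 after DMSO and 432, 576, 579.5, 638 and 256 after CompE, higher in P12-ICHIKAWA only. GINS1 had -0.37 ± 0.118 in the sensitive lines (limma adjusted p = 0.0713), GINS3 -0.32 ± 0.222 and CDC45 -0.46 ± 0.22. CDC7 had -0.16 in the sensitive and -0.14 in the other lines, and DBF4 -0.06 and -0.05, with 95% intervals of the difference between classes from -0.41 to 0.38 and from -0.34 to 0.31.

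None of the 7 cyclin, CDK2 and E2F genes passed in any comparison between CompE and DMSO, and at an unadjusted p under 0.05 none did over the 10 lines, in the sensitive lines or in the other lines (limma). Of all 7695 genes, 1934, 1869 and 855 were under this unadjusted limit in the same order. With 7 genes the count of 0 is too small a sample to be read as a result beside these numbers. CCNE2, a cyclin E that activates CDK2 at the G1/S boundary, had the largest estimate of the group over the 10 lines, -0.15 ± 0.139. In ALL-SIL, CUTLL1, DND41, HPB-ALL and KOPTK1 it read 536, 609, 417, 579.7 and 446 after DMSO and 853, 279, 459, 333 and 328 after CompE. ALL-SIL was higher and CUTLL1 lower, and the ranges overlapped. CCRF-CEM, MOLT3, P12-ICHIKAWA, PF382 and RPMI8402 read 378, 457, 269.6, 503 and 315 after DMSO and 317, 504, 243, 477 and 390.4 after CompE. CCNE1, the other cyclin E, had -0.24 ± 0.229 in the sensitive lines, CCNA2, cyclin A, -0.26 ± 0.13 and CDK2, their kinase, -0.09 ± 0.155. Other probe sets of these genes had larger estimates there, -0.82 for CCNA2, with all 5 sensitive lines lower, -0.65 for CCNE2 and -0.38 for CDK2 (a further CDK2 probe set was dim), and these were not tested.

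E2F1, E2F2 and E2F3 are transcription factors that activate S-phase genes. E2F1, shown by line after its values were seen, read 188, 149, 98, 217 and 18.4 after DMSO in ALL-SIL, CUTLL1, DND41, HPB-ALL and KOPTK1, and 177, 105, 180.3, 130.1 and 165 after CompE. The DMSO array of KOPTK1 was far below the others and below the signal at the filter on dim genes, 32.5, so the size of the change there is not given. A second E2F1 probe set gave -0.34 in the sensitive lines where the first gave 0.40, and 0.74 in KOPTK1, so the direction of E2F1 depends on the probe set. E2F2 was dim, between 16.3 and 87 on all 20 arrays, and had -0.07 ± 0.217 in the sensitive lines, and E2F3 had -0.11 ± 0.165.

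Among the 8 polymerase and primase subunits, all 8 estimates were below 0 in both classes, and PRIM1 and POLA1 fell in the sensitive lines. PRIM1, which makes the RNA primers, read 612 in ALL-SIL, 654 in CUTLL1, 698 in DND41, 879 in HPB-ALL and 741 in KOPTK1 after DMSO. After CompE it read 554, 276, 355, 286 and 485. All CompE values lay below all DMSO values in these lines. PRIM1 fell by 0.89 ± 0.16 (SE, n = 5 pairs, limma adjusted p = 0.00785) and kept its call without any 1 of the 10 lines. In CCRF-CEM, MOLT3, P12-ICHIKAWA, PF382 and RPMI8402 it read 882, 785, 598, 878 and 634 after DMSO and 708, 793, 628, 842 and 529.8 after CompE, lower in 3. The difference between the classes was -0.78, with a 95% interval from -1.26 to -0.30 and a limma adjusted p of 0.478.

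POLD2 differed least between classes of the 3 genes called over the 10 lines, by -0.23. It read 650, 529, 383, 647 and 296 after DMSO in ALL-SIL, CUTLL1, DND41, HPB-ALL and KOPTK1, and 452, 290, 269, 252.2 and 388 after CompE. KOPTK1 was the 1 line of 10 where it was higher. The values in CCRF-CEM, MOLT3, P12-ICHIKAWA, PF382 and RPMI8402 were 484, 558, 452, 543 and 528 after DMSO and 342, 372, 427, 474 and 433 after CompE. The change was -0.55 ± 0.177 in the sensitive and -0.32 ± 0.177 in the other lines, neither past the threshold alone. POLA1, the catalytic subunit of polymerase alpha, fell by 0.54 ± 0.155 in the sensitive lines (limma adjusted p = 0.0487). Its partner POLA2 had -0.20 ± 0.214 and PRIM2, the large primase subunit, -0.39 ± 0.181. POLD1, POLE and POLE2, subunits of the delta and epsilon polymerases, had -0.35, -0.27 and -0.48 in the sensitive lines and did not pass.

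In the group of the clamp, its loader, RPA and the enzymes that finish lagging-strand fragments, 4 of 11 genes fell in the sensitive lines. RFC4, a clamp loader subunit, read 1688 in ALL-SIL, 1688 in CUTLL1, 2046 in DND41, 2055 in HPB-ALL and 2339.8 in KOPTK1 after DMSO. After CompE it read 1602, 819, 1446, 1179 and 1377, each below every DMSO value of these lines. RFC4 fell by 0.63 ± 0.126 (SE, n = 5 pairs, limma adjusted p = 0.0118). Outside this class, CCRF-CEM, MOLT3, P12-ICHIKAWA, PF382 and RPMI8402 read 1899, 2179, 1398, 2054 and 1805 after DMSO and 1655, 2609.6, 1845, 2262 and 1752 after CompE, higher in 3. Of the 47 genes RFC4 had the smallest p for a difference between classes, -0.74 with a 95% interval from -1.12 to -0.36, and it did not pass (limma adjusted p = 0.316).

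RFC3, another loader subunit, read 1049.8, 941, 413, 1410.5 and 961 after DMSO in ALL-SIL, CUTLL1, DND41, HPB-ALL and KOPTK1, and 836, 493, 368, 697 and 553 after CompE. All 5 were lower, and DND41, low in both conditions, made the ranges overlap. RFC3 fell by 0.63 ± 0.142 (limma adjusted p = 0.0178). CCRF-CEM, MOLT3, P12-ICHIKAWA, PF382 and RPMI8402 read 716, 997, 829, 1352 and 605 after DMSO and 767, 1057, 1129.8, 1227 and 456 after CompE, a change of 0.02 ± 0.142. RFC5 fell by 0.47 ± 0.137 in the sensitive lines (limma adjusted p = 0.0483). RFC2 had -0.52 ± 0.185 and RFC1, the large subunit, -0.17 ± 0.1 there, and neither passed.

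RPA3 read 3215, 3302, 2399, 2849.9 and 2079 after DMSO in ALL-SIL, CUTLL1, DND41, HPB-ALL and KOPTK1, and 3083, 2058, 1636, 1617 and 1302 after CompE. All 5 were lower, and the ranges overlapped through ALL-SIL. In CCRF-CEM, MOLT3, P12-ICHIKAWA, PF382 and RPMI8402 it read 2092, 1869, 1779, 1713 and 1549 after DMSO and 2052, 1506, 1753, 1808 and 1092 after CompE, higher in PF382 only. RPA3 fell by 0.55 ± 0.116 in the sensitive lines (limma adjusted p = 0.0132), and the change in the other lines was -0.16 ± 0.116. The partners of RPA3 in the same trimer did not pass: RPA2 had -0.35 ± 0.113 and RPA1 0.18 ± 0.112 in the sensitive lines. PCNA, the clamp, had -0.25 ± 0.111 in the sensitive and 0.12 ± 0.111 in the other lines. The flap nuclease FEN1 had -0.39 ± 0.139, and the ligase LIG1 ranged from -2.08 in HPB-ALL to 1.72 in KOPTK1.

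CHAF1A and CHAF1B are subunits of CAF-1, the chaperone that places histones on new DNA, and neither passed. CHAF1A read 603, 374, 418, 534 and 311 after DMSO in ALL-SIL, CUTLL1, DND41, HPB-ALL and KOPTK1, and 533, 216, 393, 302 and 362 after CompE. The values in CCRF-CEM, MOLT3, P12-ICHIKAWA, PF382 and RPMI8402 were 292, 614, 431, 425 and 497 after DMSO and 373, 641, 396, 294 and 372 after CompE. It was lower in 4 sensitive and 3 other lines, with -0.32 ± 0.161 in the sensitive lines. CHAF1B had -0.49 ± 0.199 there and 0.19 ± 0.199 in the other lines.

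**Figure D4:**
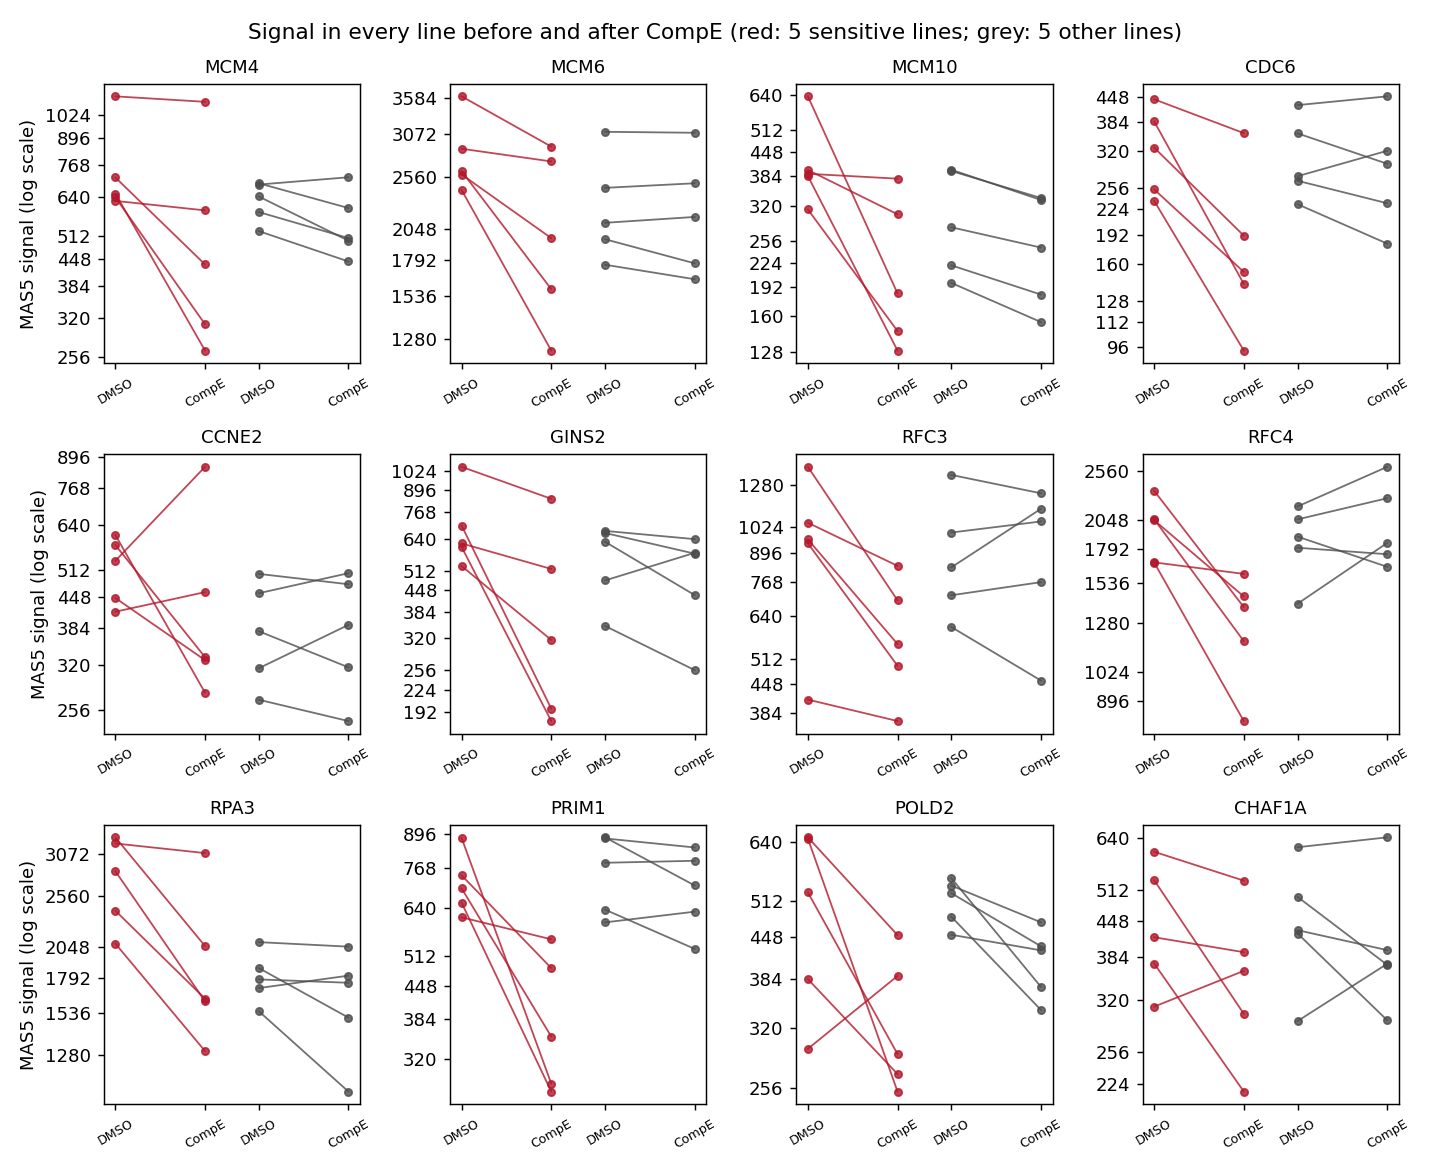
MAS5 signal (vertical axes, log scale, 1 panel per gene) in DMSO and CompE for 12 genes named by rule, with a line joining the arrays of each cell line, sensitive lines in red and other lines in grey. All 5 red lines descend for MCM4, MCM6, MCM10, CDC6, GINS2, RFC3, RFC4, RPA3 and PRIM1, and the grey lines of RFC4 descend in 2 of 5.

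Further probe sets of the same genes were compared as a check on the choice of probe set. There were 23 of them for 17 genes, and 21 read above the signal at the filter, 32.5. Of these, 20 were lower in the sensitive lines, with a median of -0.61, and the exception was one of E2F3 at 0.04. They share their RNA with the probe sets used and are no independent support.

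KOPTK1 stood apart from the other sensitive lines in RNA quality, and its changes went in both directions. There, 10 of the 47 genes were higher by 0.5 or more and 10 lower by 0.5 or more. Over all 7695 genes these counts were 2137 and 1382 in this line, so large changes both ways were not particular to the 47. CDT1 (2.11), LIG1 (1.72), MCM5 (1.11) and POLA2 (1.04) were the highest beside E2F1, whose DMSO signal was below that of the filter, and MCM10 (-1.02), RFC3 (-0.78), RFC4 (-0.76) and POLE2 (-0.74) the lowest. MYC had its lowest change of any line in KOPTK1, -3.85, and the ACTB ratio went from 3.32 to 9.76. The ratio was near its DMSO value in CUTLL1, 1.17 and 1.25, and went from 1.03 to 1.30 in HPB-ALL. With the ratio of each array as a covariate, 1 of the 47 genes was called over the 10 lines and 5 in the sensitive lines, and the median in the sensitive lines was -0.56. Calls among all genes tested fell as well, from 552 to 318 over the 10 lines and from 563 to 204 in the sensitive lines.

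Levels before treatment were compared between the classes to see whether they started apart. In the DMSO arrays, 0 of the 47 and 2 of the 7695 genes (0.026%) passed the test of sensitive against other lines (limma), with 2 of the 47 and 706 of all genes at an unadjusted p under 0.05. The median difference of the 47 was 0.04, from -0.59 for E2F1, which includes the dim KOPTK1 array, to 0.60 for RPA3. RPA3 read 2079 to 3302 in the sensitive and 1549 to 2092 in the other lines, so the ranges met at their edges.

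Other genes of the pathway were taken from a list of 51, of which 45 were tested. Over the 10 lines 7 fell and 2 rose, beside the 3.24% and 3.94% of all genes, and in the sensitive lines 9 fell and 2 rose, with medians of -0.17 and -0.23. CDK6 and CDK4, the kinases that act with D-type cyclins in G1, fell by 0.79 ± 0.145 and 0.42 ± 0.0898 over 10 pairs (limma adjusted p = 0.00976 and 0.015), each lower in all 10 lines. TIPIN and WDHD1, which travel with the replication fork, fell by 0.56 ± 0.124 and 0.51 ± 0.127 (limma adjusted p = 0.0171 and 0.0257), also in all 10 lines. ORC3, a further origin recognition subunit, fell by 0.36 ± 0.093 (limma adjusted p = 0.0313). CDKN2D, an inhibitor of CDK4 and CDK6, rose by 0.65 ± 0.141 (limma adjusted p = 0.016), higher in 9 of 10 lines. The other gene that rose was MCM3AP, an mRNA export factor named for its binding of MCM3, by 0.34 ± 0.0925 (limma adjusted p = 0.0388); it is named here after its value was seen.

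Mitosis genes, which act after S phase, were set beside the replication genes. Of 24 tested, 1 fell over the 10 lines, MAD2L1 of the spindle checkpoint, by 0.44 ± 0.11 (limma adjusted p = 0.0271), a share near the 3.24% of all genes, and the median of the 24 was 0.08. In the sensitive lines, with 3.13% of all genes lower, MAD2L1 and the spindle factor TPX2 fell, by 0.69 ± 0.133 and 0.35 ± 0.0991 (limma adjusted p = 0.0109 and 0.0435). In HPB-ALL the median of the mitosis genes was 0.21 where that of the replication genes was -0.82, and in CUTLL1 the medians were -0.34 and -0.88. They lay closer in the remaining sensitive lines, -0.12 and -0.08 in ALL-SIL, -0.08 and -0.20 in DND41, and -0.04 and -0.11 in KOPTK1. In all 5 other lines the mitosis median was above 0, from 0.13 to 0.26.

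The response genes HES1, MYC and NOTCH3 fell over the 10 lines, with changes of -1.71 ± 0.304, -1.50 ± 0.282 and -1.34 ± 0.233 (SE, n = 10 pairs, limma adjusted p = 0.00775, 0.0107 and 0.00692), and were lower in 10, 9 and 9 lines. All 3 also fell in the sensitive lines, with -1.86 ± 0.439, -1.81 ± 0.394 and -1.59 ± 0.327 (limma adjusted p = 0.0221, 0.0163 and 0.0124). They had another order of lines than the replication genes. HES1, a repressor induced by NOTCH, had changes of -3.51 in CUTLL1 and -3.04 in HPB-ALL but also -3.52 in PF382, where the replication median was 0.01. MYC was -0.45 in CUTLL1, -1.59 in HPB-ALL and -3.85 in KOPTK1. NOTCH3 was -0.11 in CUTLL1 and -2.28 in HPB-ALL. These values of single lines each rest on 1 pair of arrays.

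**Figure D5:**
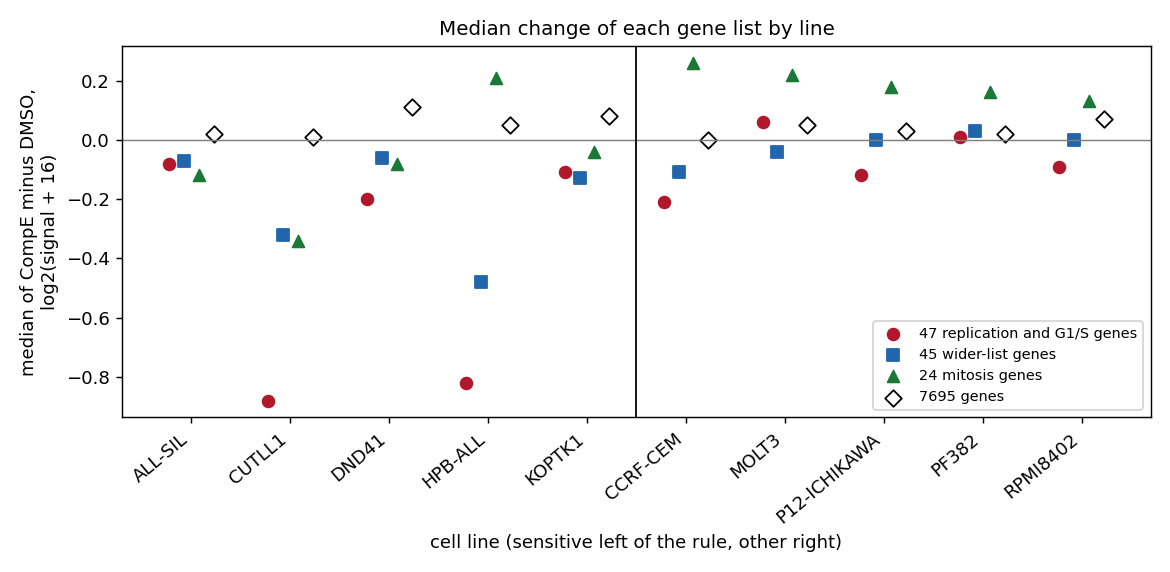
Median change, CompE minus DMSO on the log2(signal + 16) scale (vertical axis), of the 47 replication and G1/S genes, 45 genes of the wider list, 24 mitosis genes and all 7695 genes in each line (horizontal axis). The replication median is the lowest of the 4 in every line but ALL-SIL, KOPTK1 and MOLT3. It is farthest below the others in CUTLL1 and HPB-ALL, while the mitosis median is 0.21 in HPB-ALL.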

How the data were processed

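Total RNA of 10 T-ALL lines, each in DMSO and in 100 nM CompE for 72 h, was measured on 20 Affymetrix 3' arrays. The deposited table holds linear MAS5 signals (intensity per probe set), as the submitters' processing notes name that program without version or settings. Tested on the values, the lowest 2% trimmed mean of any array was 250 after rounding. The highest was not recorded, so scaling of all arrays to 1 target by the authors is assumed, and the deposited scale was kept. Such scaling cannot show a change in total RNA per cell.

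Of 22277 probe sets, 62 controls and those with several genes or none in the platform annotation were left out. Each gene kept its probe set of highest mean log2 signal, and genes under the 40th percentile (a signal of 32.5) were dropped, which left 7695. Log2(signal + 16) was fitted in limma 3.58.1 (R 4.3.3) with line as a fixed block and an intensity trend, for all lines and per response class, two-sided, with Benjamini-Hochberg adjustment over the 7695 genes at 0.05. DMSO levels were fitted on the 10 DMSO arrays. Arrays were paired by the cell line in their labels; each of the 10 CompE arrays was closest to its line's DMSO array (r = 0.918 to 0.984, against at most 0.912 with another). The residual degrees of freedom of the fit over 10 lines were 9 and the prior ones 7.39, and the number of arrays limits the precision. P-values rest on how much these lines vary.

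The 47 genes and all lists were chosen with earlier results of these data known. Values of every line are given for genes called in a comparison of treatments (at most 8 per comparison, by adjusted p), the 6 with the smallest p over 10 lines and the largest change of each role, and at most 6 called genes of the wider list. Other genes are given by estimates, ranges and counts, except E2F1, shown by line after its values were seen. The code was tested on simulated data. Promoters are RefSeq windows matched by symbol.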

Additional observations from a re-analysis of the deposited data

Results flagged for a closer look

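In 141 groups of 10 values, which were the DMSO levels, CompE levels and changes of the 47 genes, 7 had a highest or lowest line far from the others by Dixon's criterion, and chance gives about 1 in 20. KOPTK1 gave 3 of them. E2F1 read 18.4 there in DMSO against 98 in the next line, DND41, and POLD1 read 174 in DMSO against 334 in MOLT3. The change of ORC6 in KOPTK1 was 0.78, against 0.03 in ALL-SIL as the next highest. KOPTK1 also had the highest ACTB 3'/5' ratios, 3.32 and 9.76, and their part in these values was not tested.

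P12-ICHIKAWA gave 2, with E2F1 at 39 in CompE against 105 in CUTLL1 and PRIM2 at 81.3 in DMSO against 117 in DND41. MCM4 read 1139 in DMSO in ALL-SIL, above 716 in DND41. PCNA read 3940.2 in CompE in MOLT3, above 2823 in P12-ICHIKAWA.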

How the results depend on the processing

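The median change of the 47 genes stayed below 0 under all alternatives, from -0.28 to -0.08 over the 10 lines, from -0.56 to -0.14 in the sensitive lines and from -0.13 to -0.02 in the other lines. Some alternatives could not move it, since the block, the intensity trend and the permutation test change the p-values and not the estimates. A filter changes only which genes enter, and leaving out lines of 1 class leaves the estimates of the other class as they were. Counts of called genes moved far more. Over the 10 lines, 3 of the 47 were called; the count was 7 with median centring, 5 with a pseudocount of 64, 7 with a filter at the 60th percentile, 7 with line as a random block, 1 with an ACTB covariate, and 0 with no filter, with no replicate block, without the intensity trend, with an exact permutation test per gene, or without CUTLL1 and HPB-ALL, and it ranged from 0 to 9 without 1 line. The 552 genes called among all genes became 0 with no replicate block, 318 with the ACTB covariate, 298 without the 3 lines of the other medium label, 0 with the permutation test, 44 without CUTLL1 and HPB-ALL, and 181 to 1031 without 1 line. In the sensitive lines, the 14 called became 9 with no filter, 0 with no replicate block, 8 without the trend, 5 with the ACTB covariate, 3 without the 3 lines and 0 without CUTLL1 and HPB-ALL, and ranged from 2 to 23 without 1 line. The 563 called among all genes became 360 with no filter, 0 with no replicate block, 204 with the ACTB covariate, 102 without the 3 lines, 10 without CUTLL1 and HPB-ALL, and 100 to 874 without 1 line. The number of sign patterns in the permutation test limits how small its p can be. Over the 10 lines a call was still possible if many genes reached that smallest p together, so its count of 0 there is not set aside. Without the block, the differences between lines enter the residual; the cause of the other shifts was not tested. In the other lines, 2 genes were called with the ACTB covariate and 0 to 7 without 1 line, none of the 47. The difference between classes had 1 call with line as a random block and 0 to 1 without 1 line, none of the 47. DMSO levels had 1 call with a pseudocount of 1, with no filter or with the ACTB covariate, 5 with a pseudocount of 64, 4 at the 60th percentile, 6 with the mean of all probe sets, 0 with the permutation test, 7 without CUTLL1 and HPB-ALL and 1 to 8 without 1 line, none of the 47. CCNE2, not called, changed sign without CUTLL1 and HPB-ALL, to 0.04 over the remaining lines and 0.12 in the sensitive ones. Over 24 alternatives, MCM10 and RPA3 were called over the 10 lines in 13 and POLD2 in 8; in the sensitive lines, over 23 alternatives, CDC6 and PRIM1 were called in 21, RFC4 in 19 and MCM4 in 15. Dim genes such as E2F2 lie near the filter, where MAS5 signals are noisy.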
